A study of Saccharomyces cerevisiae with 23 samples.

Results

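The 4 genes that encode the subunits of ribonucleotide reductase in budding yeast (Saccharomyces cerevisiae), RNR1, RNR2, RNR3 and RNR4, were followed together with HUG1 and RFX1 through hyperosmotic stress in cells with and without sumoylation-deficient forms of the corepressor Tup1-Cyc8. The 6 genes were chosen by their systematic names (YER070W for RNR1, YJL026W for RNR2, YIL066C for RNR3, YGR180C for RNR4, YML058W-A for HUG1 and YLR176C for RFX1), and all 6 had a probe among the 6256 genes on the array. Ribonucleotide reductase makes the deoxynucleotides that DNA replication and repair consume. Rnr1 is the main large subunit and its gene is transcribed around the G1/S transition, Rnr3 is a second large subunit known mainly for its induction by DNA damage, and Rnr2 and Rnr4 form the small subunit. Hug1 is a small protein that binds and inhibits the enzyme. Rfx1 (also called Crt1) is the DNA-binding repressor of RNR2, RNR3, RNR4, HUG1 and of its own gene, which it silences by recruiting Tup1-Cyc8, and the checkpoint kinases Mec1, Rad53 and Dun1 relieve this repression when DNA is damaged or replication stalls.

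RNA from whole cultures was hybridised to 2-colour Agilent arrays, so fewer cells of one cell cycle stage and less RNA per cell cannot be told apart. There were 4 strains, wild type (WT), Tup1K270R, Cyc8-4KtoR and the double mutant Tup1K270R/Cyc8-4KtoR, grown in yeast complete medium and sampled at 0, 30 and 60 min of 1.2 M sorbitol. Every strain, the wild type included, was his3∆1, leu2∆0, met15∆0 and ura3∆0, carried SUMO tagged at its own locus (6His-FLAG-SMT3), and had both corepressor genes deleted and put back, TUP1 or its K270R form with URA3 and CYC8 or its 4KtoR form, in which 4 lysines were replaced by arginine, with LEU2. The 2 replicates, A and B, were separate isolates, each from its own transformation. Each of the 11 groups held 1 array of each replicate, and each array set a sample against the unstressed wild type of its own replicate, with the sample in Cy3 in set A and in Cy5 in set B. Dye, isolate and reference culture therefore cannot be told apart between the sets. All values below are log2 ratios over that unstressed wild type unless another comparison is named, and a further array compared the wild-type reference of set B with that of set A. The probes do not read the point mutations, so the labels could not be checked through TUP1 or CYC8. For the double mutant in set B, the source names exchange the 30 and 60 min samples and, at 0 min, the dyes. The titles were followed, and values with these exchanges are given beside the main results of that strain. By the titles, the standard deviation over tested probes in its set B was 0.94 at 30 and 0.65 at 60 min. In its set A it was 0.94 and 0.75.

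Each gene had 2 spots per array, and on all 23 arrays the spots of the 6 genes were well above background in both channels, with none saturated. RNR2 was bright, with a median Cy3 signal of 21121, whereas HUG1 was close to background, with a median Cy3 signal of 56.25 over a local background of 28 and a median Cy5 signal of 67.75 over 40. RNR3 (477 in Cy3) and RFX1 (238 in Cy3) lay between these. The duplicate spots of the 6 genes, which read the same RNA, were more than 0.65 log2 units apart in 27 of 138 cases. All 27 came from the 10 arrays on which the scanner software had divided a fitted spatial trend out of the Cy3 channel alone, where they were 27 of 60 pairs with a median difference of 0.57, against 0 of 66 pairs on the 11 arrays with no such correction and 0 of 12 on the 2 arrays corrected in both channels. In ratios recomputed from the background-subtracted intensities with loess in each array and without that correction, no pair was so far apart (median 0.07, highest 0.38). The 10 arrays were both replicates of wild type at 30 min and of Tup1K270R at 0 and 60 min, and replicate A of Cyc8-4KtoR and of the double mutant at 0 and 60 min. The main results are therefore given from the deposited ratios and, beside them, from the ratios before detrending, which were one of the listed alternatives. Because the arrays of a set share a reference culture and a dye orientation, calls that change when the set enters the fit as a replicate block are given as well. Between replicates, the 6 genes differed by a median of 0.37 in the deposited ratios and of 0.16 before detrending.

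**Figure D1:**
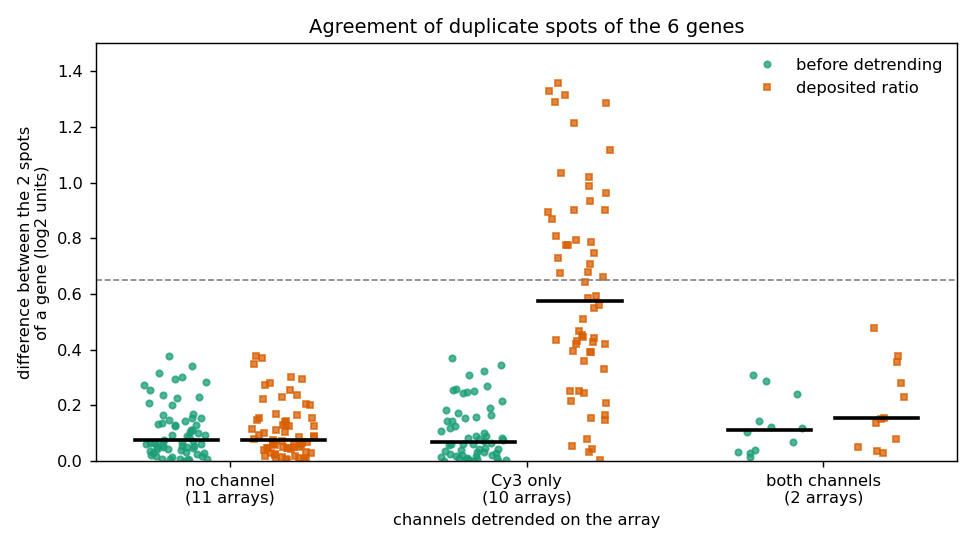
Difference in log2 ratio between the 2 spots of each of the 6 genes, 1 point per gene and array, in the deposited ratios and in the ratios before detrending, with arrays grouped by the channels detrended, bars at the medians and a dashed line at 0.65. The deposited differences reached 1.36 on the 10 arrays detrended in Cy3 alone and stayed under 0.65 on the other arrays, and before detrending all stayed at or under 0.38.

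Among the 6 genes, the stress response of wild type was led by RNR1, which fell at 30 min and rose again by 60 min, while HUG1 and RFX1 rose at 30 min. RNR3 also rose at both times in the ratios before detrending, and RNR4 was lower at 60 min in those ratios. RNR1, the main large subunit, was at -1.21 in replicate A and -1.94 in replicate B at 30 min, and at 0.33 and 0.99 at 60 min. Both replicates lay below the unstressed cells at 30 min and above them at 60 min. By limma across 6201 probes, with Benjamini-Hochberg adjustment, RNR1 fell by 1.57 at 30 min (2.97-fold, SE 0.24, n = 2, adjusted p = 0.00017), a call that 19.4% of all probes shared in that direction. Between 30 and 60 min RNR1 rose by 2.23 (4.70-fold, SE 0.34, n = 2 and 2, limma adjusted p = 0.000962), a direction in which 7.42% of probes were called. Neither call was kept with the times of the double mutant's set B exchanged. That exchange leaves the wild-type values as they are and changes only the spread shared across groups. The 60 min level of 0.66 above unstressed cells missed the threshold in the deposited ratios (adjusted p = 0.0992; 0.0449 with the replicate block). Before detrending, the values at 30 min were -1.50 and -1.53, and the mean of 0.74 at 60 min passed it (adjusted p = 0.000536).

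RFX1, the repressor, was at 0.57 in replicate A and 1.76 in replicate B at 30 min and at 0.33 and 0.18 at 60 min. It was higher in both replicates at 30 min and near its starting level at 60 min. Its mean of 1.17 at 30 min (2.25-fold, SE 0.23, limma adjusted p = 0.00103) passed the threshold, as did HUG1, and 18.0% of all probes were called higher at that time. Before detrending, RFX1 was at 1.16 and 1.66 at 30 min. It then fell by 1.20 from 30 to 60 min (adjusted p = 1.35e-05, with 25.8% of probes called lower), a step of -0.91 in the deposited ratios that was not called (adjusted p = 0.076, with 6.11% called lower) unless the replicate block was used (adjusted p = 0.0151, with 11.3% called lower). Without replicate B, the deposited 30 min value of 0.57 was not called (adjusted p = 0.0817).

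HUG1, the dim gene of the set, was at 1.35 in both replicates at 30 min and at 1.06 and 1.19 at 60 min. All 4 arrays lay above the unstressed reference. The mean at 30 min was 1.35 (2.55-fold, SE 0.35, limma adjusted p = 0.00814) and that at 60 min 1.12, just short of the threshold (adjusted p = 0.0522; 0.0172 with the replicate block). Before detrending the replicates at 30 min read 0.64 and 1.56, and the means of 1.10 at 30 min and 1.10 at 60 min were both called (adjusted p = 0.00027 and 0.000618). With normexp background correction, which damps the ratios of dim spots, the same means were 0.49 and 0.43, still called. In the deposited ratios, the 30 min call was lost when the array of the references served as baseline. It was also lost with the sign of the double mutant's set B array at 0 min turned.

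RNR3, the damage-inducible large subunit, was at 1.18 in replicate A and 0.74 in replicate B at 30 min and at 0.38 and 0.60 at 60 min. It was above the reference on all 4 arrays, yet the deposited means of 0.96 and 0.49 were not called (limma adjusted p = 0.079 and 0.538), though the former was with the replicate block (adjusted p = 0.0230). Before detrending, 0.93 and 1.17 at 30 min gave a rise of 1.05 (2.07-fold, adjusted p = 4.3e-07), 0.58 and 0.60 at 60 min gave 0.59 (adjusted p = 0.000255), and the step of -0.46 in between was called (adjusted p = 0.0154). The small-subunit gene RNR2 was at 0.93 and -0.21 at 30 min and at 0.02 and -0.13 at 60 min, values that straddle the reference. Its partner RNR4 was at 0.12 and 0.34 at 30 min and at -0.61 and -0.28 at 60 min, and thus below the reference in both replicates at the later time. The RNR4 mean of -0.44 at 60 min was not called in the deposited ratios (adjusted p = 0.131), where 7.10% of probes were called higher and 5.39% lower and none of the 6 genes was among them. Before detrending it was -0.40 and called (adjusted p = 0.0129), as was the step of -0.59 from 30 min (adjusted p = 0.0097), which was -0.68 and not called in the deposited ratios (adjusted p = 0.0941).

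In counts, the deposited ratios called 3 of the 12 wild-type values of the 6 genes (2 higher and 1 lower at 30 min, 0 at 60 min), the ratios before detrending 8 of 12, and the deposited ratios with the replicate block 6 of 12 (with 22.5% of probes called higher at 30 min and 11.3% at 60 min). The same change of values raised the calls over all 6129 probes measured in it, to 34.7% higher and 32.7% lower at 30 min, 24.1% and 22.2% at 60 min, and 23.4% higher from 30 to 60 min. Read against those shares, 3 of 6 higher and 1 of 6 lower at each time is not far from what the whole array did.

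**Figure D2:**
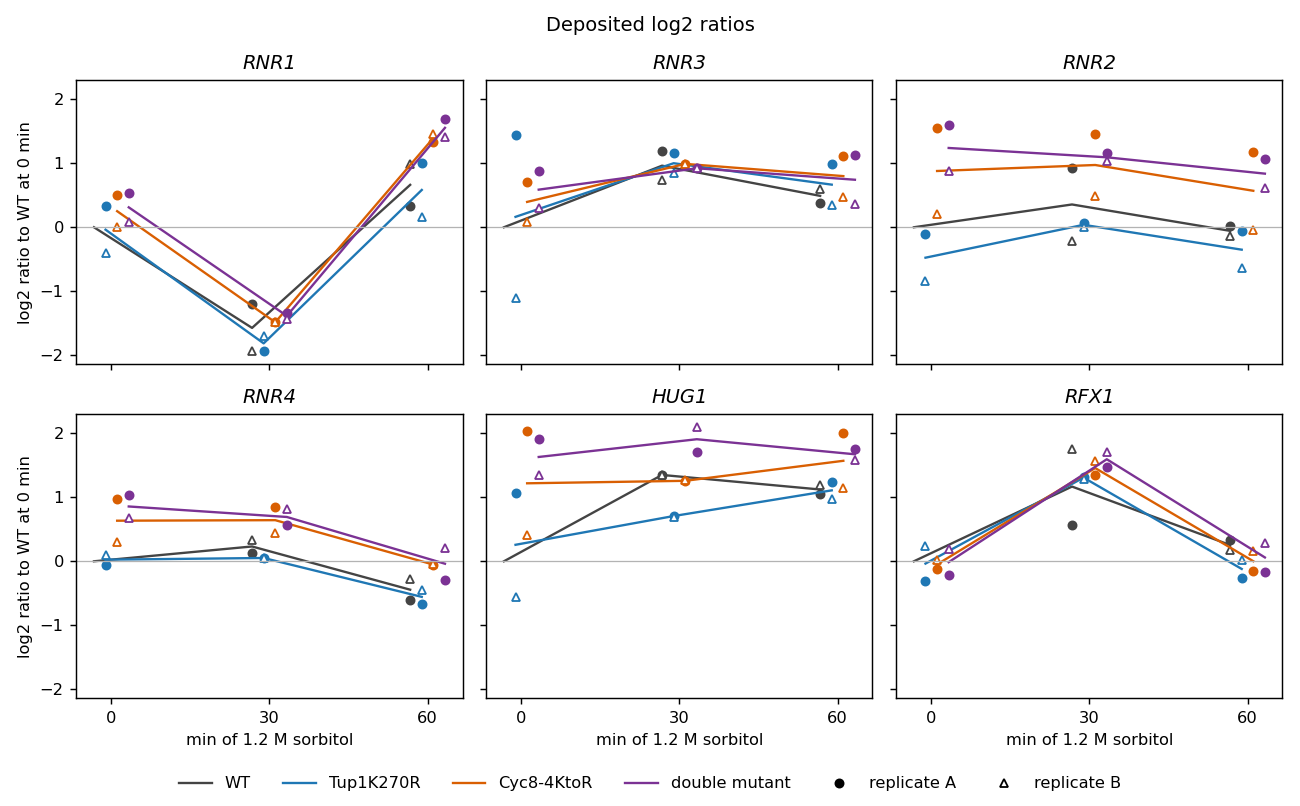
Deposited log2 ratios of the 6 genes over the unstressed wild type (vertical axis) against minutes in 1.2 M sorbitol (horizontal axis), with 1 point per array, replicates A and B as different symbols, and lines through the means of 2 for each of the 4 strains, drawn slightly apart. Wild type at 0 min is 0 by construction and has no points. RNR1 dipped at 30 min to between -1.94 and -1.21 on all 8 arrays, and RFX1 peaked there between 0.57 and 1.76.

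**Figure D3:**
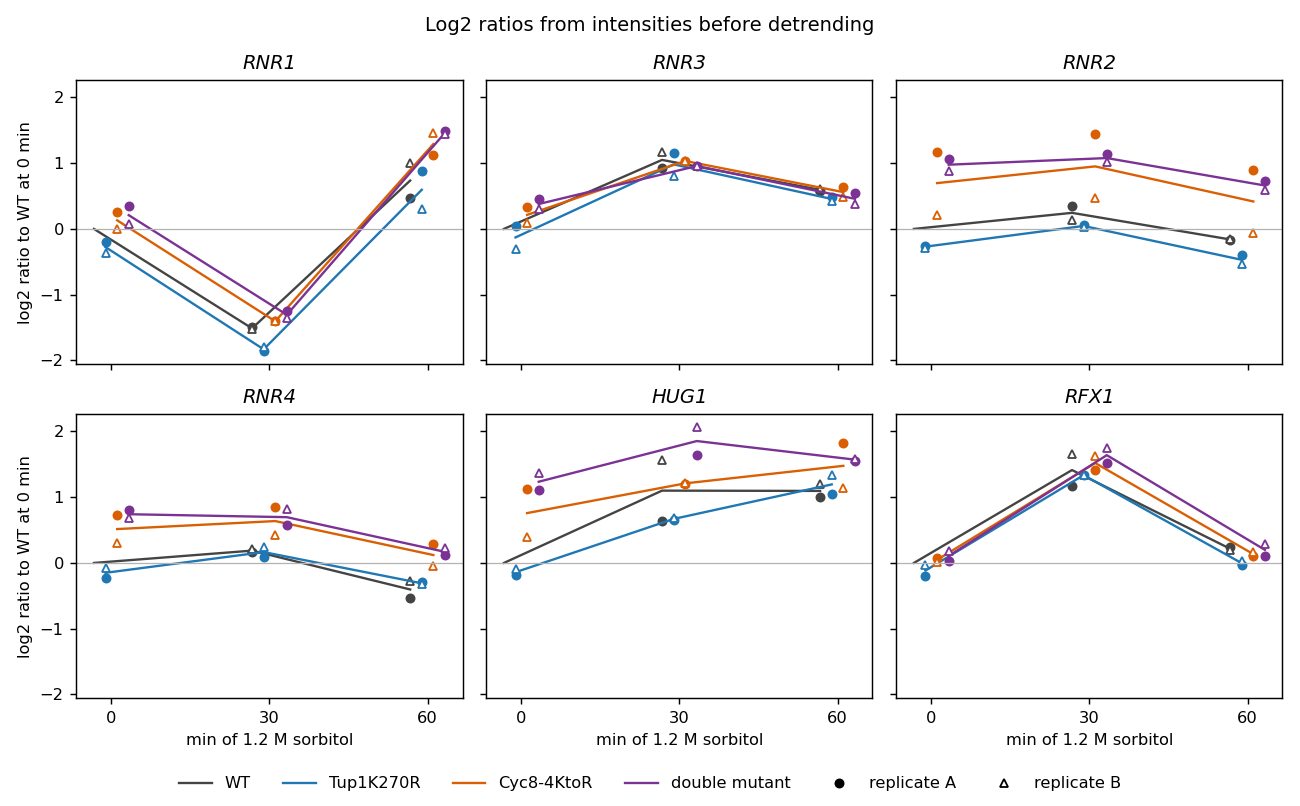
The same plot from the ratios before detrending, with the same axes and symbols. Replicates lay closer together, with a median difference of 0.16 in place of 0.37, and RNR2 in Cyc8-4KtoR stayed split between replicate A (0.89 to 1.44) and replicate B (-0.06 to 0.47) at all 3 times.

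The other genes of the pathway were read from lists written with earlier results of these data known. Of 15 genes known to be induced by DNA damage, 7 rose and 0 fell in wild type at 30 min by limma, with a median of 0.57 against -0.06 over all probes and 18.0% of all probes called higher. Before detrending, 12 rose and 1 fell, where 34.7% and 32.7% of all probes did. The largest changes were in DDR2 (1.90 and 3.95, mean 2.93) and DDR48 (2.30 and 2.42, mean 2.36), which many kinds of stress induce, followed by PLM2 (mean 1.51), a target of the G1/S factors. At 60 min 5 of the 15 were higher, led by DDR48 (3.05) and DDR2 (2.72), where 7.10% of all probes were called higher (9 of 15 and 24.1% before detrending). Of 22 genes expressed around the G1/S transition, as RNR1 is, 0 rose and 7 fell at 30 min (median -0.20), against 18.0% and 19.4% of all probes. Before detrending, 4 rose and 12 fell (median -0.28). The lower genes were led by the cohesin gene SMC3 (-1.63 and -1.30, mean -1.47) and by POL12 (mean -0.90) and POL1 (mean -0.79) of DNA polymerase alpha. The list included SWI4 (mean -0.84), which encodes the DNA-binding subunit of the G1/S factor SBF, and the RNR1 mean of -1.57 was below that of every gene in it. At 60 min 2 of the 22 were higher, the replication protein A genes RFA2 (0.64) and RFA1 (0.43), and SMC3 was still lower (-0.76), shares close to the 7.10% higher and 5.39% lower over all probes (6 and 3 of 22 before detrending).

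Among 6 regulators of the enzyme, WTM1, known to hold the small subunit in the nucleus, rose at 30 min (0.75 and 0.50, mean 0.63, limma adjusted p = 0.00326) and IXR1, known to promote RNR1 expression, was lower (-0.12 and -1.16, mean -0.64, adjusted p = 0.0458). None of the 6 was called at 60 min, and before detrending 2 were higher and 1 lower at 30 min and 1 and 3 at 60 min. Of 11 measured checkpoint genes, 2 rose at 30 min, the kinase gene DUN1 (mean 0.72) and the clamp gene MEC3 (mean 0.67), and 3 fell, including the kinase gene TEL1 (mean -0.99) and the mediator gene MRC1 (mean -0.98), beside 18.0% higher and 19.4% lower over all probes (4 and 5 of 11 before detrending). At 60 min the one call was a lower DDC2 (mean -0.52), the partner of Mec1. Of 5 measured enzymes that act on deoxynucleotides and their precursors, YNK1, the nucleoside diphosphate kinase, rose (mean 0.75) and DCD1, the dCMP deaminase, fell (mean -1.15) at 30 min, and GUK1, the guanylate kinase, was lower at 60 min (mean -1.10). Before detrending, 1 was higher and 4 were lower at 30 min, and 1 and 1 at 60 min. Beside all these lists, the ratios before detrending called 34.7% of all probes higher and 32.7% lower at 30 min. At 60 min they called 24.1% and 22.2%, and the deposited ratios 7.10% and 5.39%. With the stress, 10 of 10 osmotic stress genes were higher at both times in both sets of ratios, with a median of 4.79 at each in the deposited ratios.

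In unstressed cells, HUG1, RNR2 and RNR4 read higher in the double mutant on both arrays. Their mean rise was 1.81- to 3.09-fold in the deposited ratios and 1.67- to 2.35-fold before detrending. In Cyc8-4KtoR these genes read higher mainly in replicate A, whereas in Tup1K270R no gene of the 6 stood apart from wild type. HUG1 was at 1.91 in replicate A and 1.35 in replicate B of the double mutant, at 2.03 and 0.40 in Cyc8-4KtoR, and at 1.07 and -0.55 in Tup1K270R. RNR2 was at 1.60 and 0.87 in the double mutant, at 1.55 and 0.21 in Cyc8-4KtoR, and at -0.11 and -0.84 in Tup1K270R. RNR4 was at 1.03 and 0.68 in the double mutant, at 0.97 and 0.30 in Cyc8-4KtoR, and at -0.05 and 0.10 in Tup1K270R. For all 3 genes both arrays of the double mutant and of Cyc8-4KtoR lay above the reference, and for RNR2 both arrays of Tup1K270R lay below it. The references themselves were close, with set B over set A at 0.00 for HUG1, 0.06 for RNR2 and -0.04 for RNR4, and at 0.36 for RNR3.

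None of these differences passed limma in the deposited ratios, nor did any of the 6201 probes (0% in each mutant). With the replicate block, HUG1 (adjusted p = 0.025), RNR2 (0.0162) and RNR4 (0.0411) of the double mutant were called, among 0.548% of probes called higher. When the array of the 2 references also served as baseline (added after seeing the data), their adjusted p was 0.411, 0.403 and 0.530 in the same order. At an unadjusted p under 0.05, 183 probes were higher and 125 lower in the double mutant, 82 and 68 in Cyc8-4KtoR, and 318 and 245 in Tup1K270R. For the double mutant the means were 1.63 for HUG1 (SE 0.35, limma adjusted p = 0.138), 1.24 for RNR2 (SE 0.37, adjusted p = 0.482) and 0.86 for RNR4 (SE 0.18, adjusted p = 0.124). For Cyc8-4KtoR they were 1.22, 0.88 and 0.63, with an adjusted p of 0.958 for each gene. In Tup1K270R the means of the 6 genes ran from -0.48 (RNR2) to 0.26 (HUG1). Against the cutoff of 0.65 log2 units that the study's methods set from the array of the 2 references, 3 of the 6 genes were past it in the double mutant, where 2.05% of all probes were past it upward and 0.919% downward. HUG1 and RNR2 were past it in Cyc8-4KtoR (1.23% upward, 0.645% downward), and 0 of 6 in Tup1K270R (1.77% and 0.468%).

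Before detrending, the double mutant read 1.11 and 1.36 for HUG1, 1.07 and 0.89 for RNR2, and 0.80 and 0.68 for RNR4. The replicates thus came closer together for each gene, at a lower mean. HUG1 (mean 1.24, 2.35-fold, SE 0.20, limma adjusted p = 0.00775) and RNR4 (mean 0.74, 1.67-fold, SE 0.12, adjusted p = 0.00712) were then called, among 1.19% of probes called higher, and RNR2 (mean 0.98, 1.97-fold, SE 0.23) missed the threshold narrowly at an adjusted p of 0.0507. In Cyc8-4KtoR, where 0.163% of probes were called higher, HUG1 (1.12 and 0.40), RNR2 (1.18 and 0.22) and RNR4 (0.73 and 0.30) were not called. Replicate A exceeded replicate B for each of them. The value of HUG1 rests on the treatment of background, since with normexp the double mutant read 0.01 and 0.52 (mean 0.26, adjusted p = 0.999), while RNR4 kept a mean of 0.67 (adjusted p = 0.0376) and RNR2 of 0.96 (adjusted p = 0.331). If the double mutant's set B array at 0 min is read with the dyes of its source names, its sign turns and the means become 0.28 for HUG1, 0.36 for RNR2 and 0.17 for RNR4.

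RNR1, RNR3 and RFX1 differed less from wild type in unstressed mutants. RNR3, like HUG1 a classic target of Rfx1, was at 0.88 and 0.30 in the double mutant (mean 0.59, limma adjusted p = 0.951; 0.38 before detrending, adjusted p = 0.0717), at 0.70 and 0.09 in Cyc8-4KtoR, and at 1.43 and -1.11 in Tup1K270R. The gap of 2.54 between the replicates of Tup1K270R was the widest of the 66 group values of the 6 genes, and before detrending the same arrays read 0.05 and -0.31. RFX1, whose own gene Rfx1 also represses, had means of -0.01 in the double mutant, -0.05 in Cyc8-4KtoR and -0.04 in Tup1K270R, with 95% intervals of -0.50 to 0.47, -0.54 to 0.44 and -0.52 to 0.45. RNR1 had means of 0.31, 0.25 and -0.04. No gene of the lists of 15 damage-inducible, 22 G1/S, 6 regulator, 11 checkpoint and 5 deoxynucleotide genes was past 0.65 in any mutant at 0 min. In the double mutant, the medians were 0.11 for the damage-inducible and -0.01 for the G1/S genes, beside 0.72 for the 6 genes and 0.00 for all probes.

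**Figure D4:**
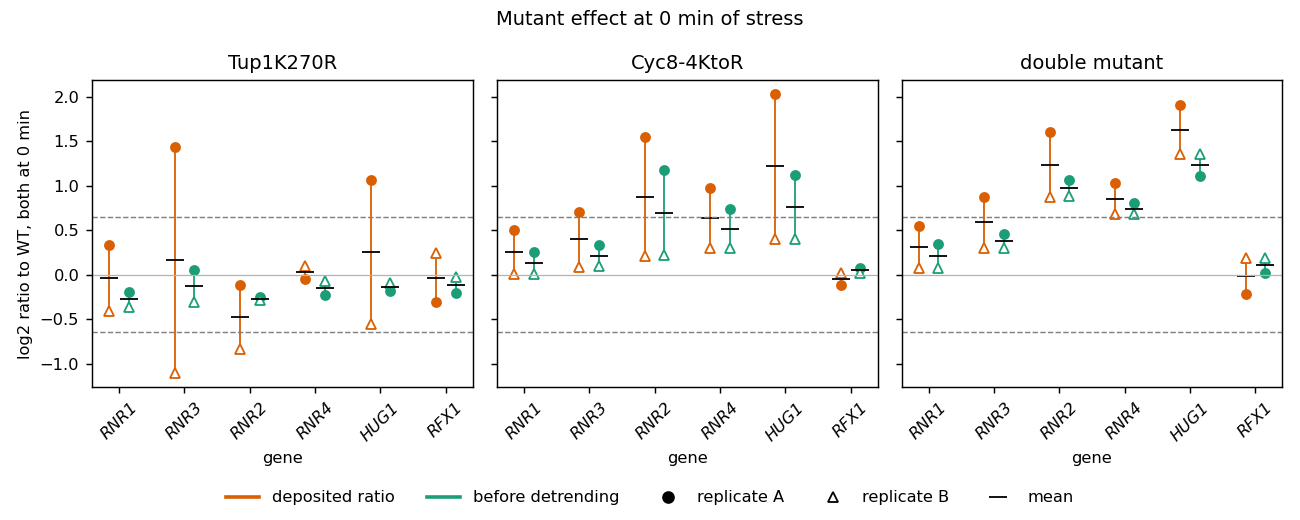
Log2 ratio of each unstressed mutant over unstressed wild type for the 6 genes, with the deposited ratios and the ratios before detrending side by side, 1 panel per mutant, 1 point per array, lines joining the 2 replicates, ticks at the mean of 2, and dashed lines at 0.65 and -0.65. HUG1, RNR2 and RNR4 of the double mutant lay above 0.65 on both arrays in both sets of ratios, and Tup1K270R of RNR3 spread from -1.11 to 1.43 in the deposited ratios alone.

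Under stress, RNR1 fell and RFX1 rose at 30 min in all 3 mutants, as in wild type. RNR1 at 30 min was at -1.93 and -1.70 in Tup1K270R, at -1.49 and -1.48 in Cyc8-4KtoR, and at -1.34 and -1.43 in the double mutant. Against each mutant's own 0 min, RNR1 fell by 1.78, 1.74 and 1.69, in that order (SE 0.34, limma adjusted p = 0.00198, 0.00231 and 0.00243), with 10.3%, 10.3% and 11.8% of probes called lower. Before detrending these steps were -1.55, -1.54 and -1.51, all called, with 27.2%, 27.4% and 28.1% of probes called lower. RFX1 at 30 min was at 1.32 and 1.29 in Tup1K270R, at 1.35 and 1.56 in Cyc8-4KtoR, and at 1.47 and 1.71 in the double mutant. It rose by 1.34, 1.50 and 1.61 over each mutant's own 0 min (SE 0.32, adjusted p = 0.00779, 0.00371 and 0.00214), with 12.5%, 12.4% and 12.7% of probes called higher. Before detrending the rises were 1.45, 1.47 and 1.53, all called, with 28.9%, 29.9% and 30.8% of probes called higher. The 6 calls in the deposited ratios were the only ones among the 36 values of the 6 genes in the mutants. With the times of the double mutant's set B exchanged, as its source names have it, none of the 6 passed. The exchange leaves the steps of Tup1K270R and Cyc8-4KtoR as they are. Their calls change through the spread alone, which the fit shares across all groups.

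At 60 min RNR1 was at 1.01 and 0.16 in Tup1K270R, at 1.34 and 1.45 in Cyc8-4KtoR, and at 1.69 and 1.41 in the double mutant. All 6 arrays were above the unstressed wild type, and the Cyc8-4KtoR and double mutant arrays were above both wild-type arrays. The steps over each mutant's own 0 min, 0.62, 1.14 and 1.24, were not called in the deposited ratios (limma adjusted p = 0.309, 0.104 and 0.0715), and in the order Tup1K270R, Cyc8-4KtoR, double mutant the shares of probes called at 60 min were 4.93%, 2.37% and 2.35% higher and 4.56%, 1.23% and 1.11% lower. Before detrending they were 0.87, 1.16 and 1.25 and all called (adjusted p = 0.00397, 0.000637 and 0.000353), with 14.4%, 12.9% and 12.5% of probes called higher. With the replicate block, those of Cyc8-4KtoR (adjusted p = 0.0399, with 4.16% called higher) and of the double mutant (adjusted p = 0.0259, with 4.02% called higher) were called, and with the double mutant's times exchanged its step was -0.18.

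RNR3 at 30 min was at 1.15 and 0.85 in Tup1K270R, at 0.99 in both replicates of Cyc8-4KtoR, and at 0.92 in both of the double mutant, so that all 6 arrays fell within or near the wild-type range of 0.74 to 1.18. Over each mutant's own 0 min these were steps of 0.84, 0.59 and 0.33, none called (limma adjusted p = 0.340, 0.522 and 0.737). Before detrending they were 1.11, 0.82 and 0.58 and all called (adjusted p = 1.53e-05, 0.000205 and 0.00279). HUG1 at 30 min was at 0.71 and 0.70 in Tup1K270R, at 1.25 and 1.26 in Cyc8-4KtoR, and at 1.71 and 2.10 in the double mutant. The 3 mutants did not overlap each other or the wild-type value of 1.35 there, but before detrending the wild-type replicates (0.64 and 1.56) spanned Cyc8-4KtoR (1.21 and 1.22). The steps of HUG1 from each mutant's own 0 min were 0.45, 0.04 and 0.28, each with a standard error of 0.50, and none was called. Before detrending they were 0.81, 0.45 and 0.62, of which that of Tup1K270R was called (adjusted p = 0.0279), as was its step of 1.34 at 60 min (adjusted p = 0.00374).

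RNR4 at 60 min was at -0.66 and -0.45 in Tup1K270R, at -0.06 and -0.04 in Cyc8-4KtoR, and at -0.29 and 0.21 in the double mutant. Its mean was below that at 0 min in every strain, by steps of -0.44 in wild type and, in the order of the mutants above, of -0.58, -0.69 and -0.89 (limma adjusted p = 0.174, 0.204 and 0.0761). Of the mutants' steps, the double mutant's was called before detrending (-0.57, adjusted p = 0.0243, with 10.6% of probes called lower) and with the replicate block (-0.89, adjusted p = 0.0436, with 2.79% called lower). The wild-type step was called before detrending too (-0.40, adjusted p = 0.0129, with 22.2% called lower). RNR2 at 30 min was at 0.07 and 0.00 in Tup1K270R, at 1.46 and 0.49 in Cyc8-4KtoR, and at 1.16 and 1.03 in the double mutant. None of its steps over the 0 min level of its own strain was called in either set of ratios.

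**Figure D5:**
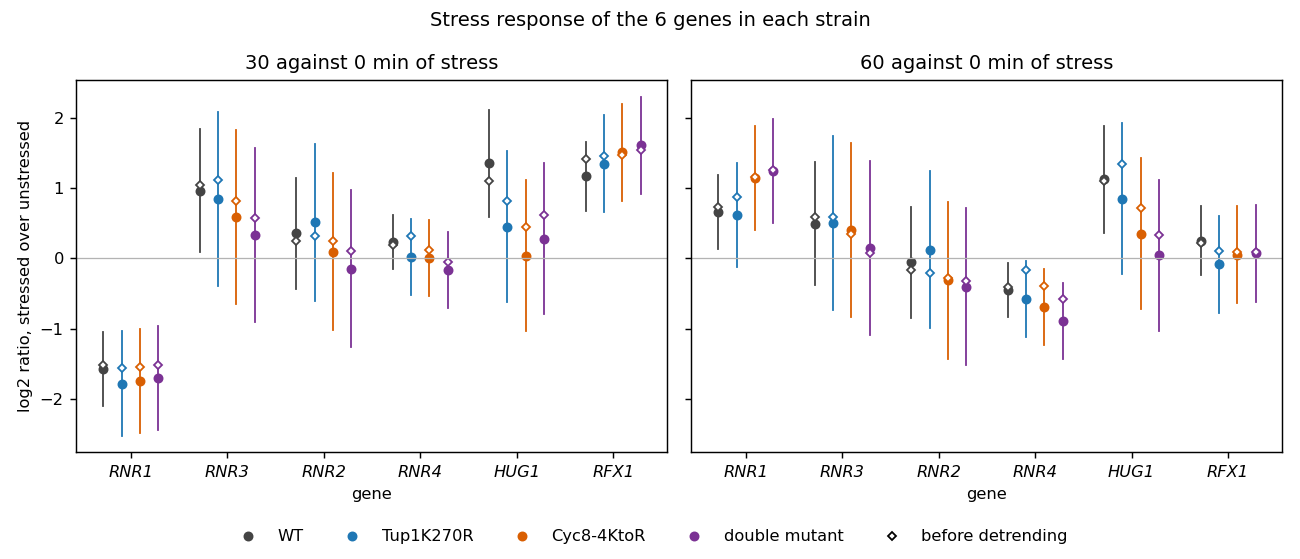
Change in log2 ratio from 0 to 30 min and from 0 to 60 min within each of the 4 strains for the 6 genes, with filled points and 95% intervals from limma on the deposited ratios and open diamonds for the ratios before detrending. RNR1 at 30 min lay between -1.78 and -1.57 in all 4 strains and RFX1 between 1.17 and 1.61, and the intervals of RNR3, RNR2 and HUG1 were wide.

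The difference between a mutant's step and that of wild type was tested directly, and of the 6201 probes 0% were called in any of the 6 such comparisons. At an unadjusted p under 0.05, between 8 probes (Cyc8-4KtoR and the double mutant at 60 min) and 167 (Tup1K270R at 30 min) were higher, and before detrending no probe was called either. The nearest of the 6 genes was HUG1 in Cyc8-4KtoR at 30 min, whose step was smaller than that of wild type by 1.31 on average (95% interval -2.62 to 0.00, limma adjusted p = 0.997). For RNR1 at 30 min the differences were -0.20, -0.16 and -0.12 in Tup1K270R, Cyc8-4KtoR and the double mutant, with intervals of -1.11 to 0.70, -1.07 to 0.74 and -1.03 to 0.78. For RFX1 they were 0.18, 0.34 and 0.44, within -0.67 to 1.02, -0.50 to 1.18 and -0.40 to 1.28.

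Set directly against wild type at the same time, the 6 genes were not called in any mutant at 30 or 60 min, nor was any other probe (0%). Past 0.65 at 30 min was RNR2 in the double mutant (0.74), with 2.31% of all probes past it upward and 0.677% downward, and no gene of the 6 in Cyc8-4KtoR (2.16% and 0.452%) or Tup1K270R (1.55% and 0.484%). At 60 min RNR1 (0.89) and RNR2 (0.89) were past it in the double mutant (2.56% upward, 1.69% downward) and RNR1 (0.73) in Cyc8-4KtoR (1.63% and 0.951%), with 0 of 6 in Tup1K270R (0.581% and 0.419%). At an unadjusted p under 0.05, between 11 (Tup1K270R at 60 min) and 107 probes (the double mutant at 30 min) were higher in these comparisons. Before detrending, at most 3 probes were called in one direction in any of them, and none of the 6 genes was among these. RNR1 in the double mutant at 60 min had the smallest unadjusted p of the 6 genes among them (0.0215, limma adjusted p = 0.998). With the times of the double mutant's set B exchanged, its difference from wild type in RNR1 turned to -0.53 at 60 min and was 1.61 at 30 min, neither called.

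The double mutant was also set against each single mutant. At 0 min it exceeded Tup1K270R by 1.71 for RNR2, 1.37 for HUG1 and 0.83 for RNR4 (limma adjusted p = 0.336, 0.409 and 0.335), and no probe was called (0%), with 269 higher and 266 lower at an unadjusted p under 0.05. Before detrending, HUG1 (1.38, adjusted p = 0.0403) and RNR4 (0.89, adjusted p = 0.0215) were called, among 1.01% of probes called higher, and RNR2 (1.25, adjusted p = 0.0817) was not. With the replicate block RNR2 was the one call among the 6 (adjusted p = 0.0170, with 0.403% of probes called higher). With the sign of the double mutant's set B array at 0 min turned, its differences from Tup1K270R became 0.84 for RNR2, 0.02 for HUG1 and 0.15 for RNR4, and those from Cyc8-4KtoR -0.51, -0.94 and -0.46. At 30 min the same differences were 1.05 for RNR2, 1.20 for HUG1 and 0.64 for RNR4, none called in either set of ratios. From Cyc8-4KtoR, the double mutant differed at 0 min by 0.36 for RNR2, 0.41 for HUG1 and 0.22 for RNR4, and the 95% intervals of these differences, -0.75 to 1.47, -0.66 to 1.48 and -0.32 to 0.76, include both no difference and one as large as the double mutant's distance from wild type for RNR2.

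Ordered by the mean of the 11 groups in the deposited ratios, RNR1 ran from 1.55 in the double mutant at 60 min to -1.81 in Tup1K270R at 30 min, with all 4 strains at 30 min below every other group. In that order the replicates of neighbouring groups overlapped in 7 of 10 pairs, and one of the breaks lay between Tup1K270R at 0 min and the double mutant at 30 min. RFX1 ran the other way, with the 4 strains at 30 min at the top (1.59 to 1.17), a break below them, and the other 7 groups between 0.25 and -0.12. RNR2 ran from 1.24 in the double mutant at 0 min to -0.48 in Tup1K270R at 0 min, with the double mutant and Cyc8-4KtoR in the first 6 places at all 3 times, though each pair of neighbours overlapped (10 of 10). RNR4 ran from 0.86 (double mutant, 0 min) to -0.56 (Tup1K270R, 60 min), with 8 of 10 neighbours overlapping. HUG1 ran from 1.91 (double mutant, 30 min) to 0.26 (Tup1K270R, 0 min), with the 3 double mutant groups in front and 8 of 10 neighbours overlapping, and RNR3 ran from 1.00 (Tup1K270R, 30 min) to 0.16 (Tup1K270R, 0 min) with all 10 overlapping. The places of the double mutant rest on its titles. With the set B sign turned, its 0 min means of 0.36 for RNR2, 0.17 for RNR4 and 0.28 for HUG1 would leave the front places.

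Over the 22 arrays, which share their 2 reference cultures, RNR1 and RFX1 ran opposite to each other (Pearson's r = -0.87, and -0.83 before detrending). RNR2 and RNR4, the subunits of one complex, had r = 0.67, and 0.90 before detrending. The r of RNR3 with RFX1 was 0.17 in the deposited ratios and 0.86 before detrending, so this value depended on the correction. RNR2 with HUG1 gave 0.76 and 0.52, and RNR3 with HUG1 0.64 and 0.51. Among all probes, the most like RNR1 were UTP25, YEH1 and OGG1 (r = 0.97 each), and the most like RFX1 were TDA1 (0.98), JID1 (0.97) and RSC9 (0.97). For RNR2 they were TPO1 (0.95), MSN4 (0.93) and INH1 (0.92), and for RNR4 INO1 (0.90), SAM1 (0.89) and RME1 (0.88). RNR3 was nearest to MDM30 (0.93), MTR10 (0.92) and APS2 (0.91), and HUG1 to FSH1 (0.86), ENO1 (0.83) and PCK1 (0.79). RNR1 and RNR3, and RNR2 and RNR4, are paralogs, and whether their probes bind each other's transcripts was not tested, since probe sequences were not used here.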

How the data were processed

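The authors scanned the arrays and deposited, per the file headers, the output of Agilent Feature Extraction 10.5.1.1 for each array: median spot and background intensities per channel, and a log10 ratio of Cy5 over Cy3 that the software had corrected for background, for a spatial trend on some arrays, and for the dyes. The authors also deposited a table of log2 ratios, which matched these ratios and ran as sample over reference on every array, with column medians between -0.019 and 0. Here the log10 ratios were turned to log2 of sample over reference, duplicate spots were averaged, and probes without a value on every array and the 51 of the region YDR211W to YDR261C, in which the study's methods describe an aneuploidy of Tup1K270R replicate A, were left out (they held RAD9 and ADK1 of the gene lists), leaving 6201 probes. Limma 3.58.1 in R 4.3.3 was fitted to 22 arrays in 11 groups, with all contrasts taken from group means and Benjamini-Hochberg adjustment over all probes at 0.05; a gene past it is called. A comparison with unstressed wild type tests the ratio against 0, with no unstressed wild-type group in the fit. A difference between the 2 wild-type references (0.36 for RNR3) enters only through the spread between sets A and B. Each group held 2 cultures, and the paper describes duplicate cultures from which the samples of all times were harvested. The fit treats the groups as independent and does not pair the times of a strain by isolate. The replicate block, shared by all strains, does not do so either. Whether such pairing would change the calls was not tested. The p-values measure the spread between the arrays of a group. That spread holds differences between cultures and measurement error, since duplicate spots of the same RNA lay far apart on some arrays. The number of arrays limits the precision. The ratios before detrending came from the background-subtracted median intensities with loess in each array (6129 probes with positive values). The other alternatives were normexp with an offset of 50, the deposited log2 table, removal of a fitted surface (loess span of 0.3), only probes well above background, slide as a random block, the array of the 2 references as baseline, each replicate left out, both label exchanges and a replicate block. The titles give all arrays of a replicate letter 1 reference culture and dye orientation, and same-lettered arrays deviated together in 52 of 55 pairs of groups (correlation over 0.1, lowest -0.08), so changed calls under the block stand beside the results. The baseline combined with the block, and counts past 0.65 under settings other than the listed ones, were added after seeing the data. The fit was also run on simulated data with noise drawn independently for each array. That run cannot test the effect of the shared reference and dye orientation, or of cultures sampled at several times. The named genes are the 6 members, up to 4 genes per list with the largest absolute mean, and the 3 probes most correlated with each member, of which 1 list gene is not reported here; the members and lists were chosen with earlier results of these data known.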

Additional observations from a re-analysis of the deposited data

Results flagged for a closer look

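For RNR2, both Tup1K270R arrays lay below wild type and both arrays of the compared mutant above it at the same time. The share of all probes with such a split is not given here, so the splits below do not set these genes apart. At 0 min, Cyc8-4KtoR exceeded Tup1K270R by 1.35 and the double mutant exceeded it by 1.71, and at 60 min by 0.92 and 1.19. Before detrending the same split of all arrays was seen, with differences of 0.97, 1.25, 0.89 and 1.13. For RNR2 the step from 0 to 60 min was also upward on both arrays of Tup1K270R and downward on both of Cyc8-4KtoR and of the double mutant, a difference of -0.43 and -0.53 that came to -0.08 and -0.12 before detrending, where the arrays no longer split.

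RNR4 split the same way between Tup1K270R and the other mutants at 30 min, by 0.59 for Cyc8-4KtoR and 0.64 for the double mutant, and at 60 min, by 0.50 and 0.52. HUG1 at 30 min was below wild type on both arrays of Tup1K270R and, at -0.09 on each, of Cyc8-4KtoR. It was above wild type on both arrays of the double mutant (0.37 and 0.75), which exceeded Tup1K270R by 1.20 and Cyc8-4KtoR by 0.65. For RNR4 and HUG1 the arrays did not split in this way before detrending, where the differences were 0.47, 0.53, 0.43, 0.48, 1.18 and 0.64 in the same order. The differences between Tup1K270R and Cyc8-4KtoR, and those between steps, were not tested; the tests of the double mutant against each single mutant called none of them in the deposited ratios, except RNR2 against Tup1K270R at 0 min with the replicate block (limma adjusted p = 0.0170).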

How the results depend on the processing

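Calls among the 6 genes changed with the spatial correction and with the replicates used. In wild type, 3 of 12 values were called in the deposited ratios, 8 before detrending, 8 with normexp, 8 with a fitted surface removed, and 2 without replicate A and 1 without replicate B. For the mutants at 0 min, 0 of 18 became 2 before detrending, 1 with normexp and 2 with the surface removed (0 without A, 1 without B). For the steps within mutants, 6 of 36 became 16, 15 and 13, and 0 with the times of the double mutant exchanged (1 without A, 5 without B). Double against single mutants went from 0 of 36 to 2 before detrending, and to 1 with the references' array as baseline and the replicate block, an alternative chosen after seeing the data. Counts at 30 and 60 min against wild type and of differences in step stayed at 0. The share of all probes called rose before detrending as well. At 30 min it went from 18.0% to 34.7% higher in wild type and from 12.5% to 28.9% in Tup1K270R. The shares with normexp and with the surface removed are not given here, so these counts do not set the 6 genes apart. Values past 0.65 numbered 9 of 54 in the mean, 4 in both replicates, 11 without A and 25 without B.

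The replicate number as a block gave 6 of 12 calls in wild type, 9 of 36 for the steps within mutants, 3 of 18 at 0 min (HUG1 adjusted p = 0.025, RNR2 0.0162 and RNR4 0.0411 in the double mutant, by limma) and 1 of 36 for double against single. It changed no call at 30 or 60 min against wild type or of differences in step. With the references' array as baseline and the block together, none of the 18 values at 0 min was called.

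Of 34 results followed gene by gene, 10 were called in the deposited ratios, and all 10 kept their call in the ratios before detrending, with normexp, with the surface removed, in the deposited table, among well-measured probes, and with either block. They kept 9 with the references as baseline and 9 with the 0 min dyes exchanged (HUG1 in wild type at 30 min lost, adjusted p = 0.053 and 0.0713), 2 with the times exchanged, 3 without replicate A and 6 without B. A direction turned in 4 cases. With the times exchanged, RNR1 of the double mutant at 60 min was -0.18. Between the single replicates, Tup1K270R ran from -0.28 to 1.95 (RNR3, 30 min), from -0.45 to 1.45 (RNR3, 60 min) and from -0.35 to 1.25 (HUG1, 30 min). The cause of these changes was not tested. HUG1 had the dimmest spots of the 6, which limits its precision.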
